A study of Lathyrus oleraceus with 16 samples.

Results

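A set of 200 pea genes was low in arrested shoot apical meristems and stood, relative to the typical gene, at its never-arrested level again 24 h after flower and fruit removal. The genes were chosen from these same libraries, out of 48559 genes in the table. Counts were divided by median-of-ratios size factors, which set the typical gene equal across libraries, and these are called scaled counts below. The level of a gene in a group is log2 of its mean scaled count plus 10. A gene was taken if its level in Arrested lay 2 or more below both Pruned and Proliferative, if Reactivated lay within 0.3 of Pruned, and if it had more than 3 raw counts over the 4 Arrested libraries. These limits were met by 365 genes, and the 200 with the largest difference between Pruned and Arrested are the members. Their levels in all 4 groups therefore served to choose them, and the falls, the rises and the closeness to Pruned below are descriptions and no evidence of a pattern.

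The shoot apical meristem is the group of dividing stem cells at the tip of a plant that makes new leaves and flowers. In plants such as pea that fruit once and die, the meristem stops making flowers after a number of fruits have set, which is called proliferative arrest. Developing seeds are known to favour this arrest, and taking fruits away can set an arrested meristem going again.

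All 16 libraries came from shoot apical meristems of wild-type Cameor, a pea cultivar, grown in vermiculite in a greenhouse with long days, in 4 groups of 4. Proliferative plants were young, with a flower bud but no open flower, and their meristems were active. Arrested meristems, titled GPA in the labels, were taken as fruiting plants underwent proliferative arrest. Pruned meristems were taken on that day from plants kept without seeds by continuous pruning, and were still active. For Reactivated, arrested plants lost all their fruits and flowers and were sampled 24 h later, with the meristem active again. Libraries of a group are biological replicates per the labels, with no word on how many plants each holds. Apices were dissected by eye, so a library can hold tissue from around the meristem. No marker of that tissue or of the meristem could be checked, because 0 of 48559 gene IDs matched the RefSeq table used here. For the same reason no gene name, function, position or sequence is given. Therefore 4 members are printed by ID and the others by their rank in the difference between Pruned and Arrested.

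Total counts per library ran from 16264221 to 24435174. Libraries of a group also differed from each other along a shared axis, which held 35.1% of the variance left within groups over the 23979 genes that passed edgeR's filter on low counts. On this axis Reactivated 2, Proliferative 2, Pruned 4 and Pruned 3 lay at one end, between 0.403 and 0.266, and Pruned 1, Proliferative 1 and Reactivated 3 at the other, between -0.403 and -0.274. The Arrested libraries lay between -0.144 and 0.171. Each end held libraries that share a number (Proliferative 2 and Reactivated 2, Proliferative 1 and Pruned 1) beside others that do not, and what the axis stands for was not tested.

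The members took a small share of the RNA at arrest and a larger one in every active library. They held 0.179%, 0.159%, 0.143% and 0.163% of all counts in Arrested 1 to 4. In Pruned 1 to 4 they held 2.04%, 1.95%, 1.79% and 2.06%. The 4 Arrested libraries thus lay far below the 4 Pruned ones, with a mean of 0.161% ± 0.0148 against 1.96% ± 0.122 (SD, n = 4 each), a ratio of 12.2. Proliferative held 2.01%, 2.07%, 2.00% and 1.87%, which overlaps Pruned, with a mean of 1.99% ± 0.0857 (SD, n = 4). In bulk samples, fewer cells of a type and less RNA of a gene per cell cannot be told apart.

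Whether the members were fully back at 24 h depends on what a library is scaled to. As a share of all counts they held 1.25%, 1.51%, 1.37% and 1.68% in Reactivated 1 to 4, a mean of 1.45% ± 0.184 (SD, n = 4). Every Reactivated library lay below every Pruned library on that scale, and the mean was 74.1% of that in Pruned. The summed scaled counts of the members were 309415, 346419, 356193 and 423654 in Reactivated 1 to 4. In Pruned 1 to 4 they were 409478, 379016, 317526 and 361558. On this second scale the groups overlapped, and the mean of Reactivated was 97.8% of that of Pruned. The scales part because size factors were low in Reactivated relative to library totals. Mean size factors were 0.783 ± 0.0764 for Reactivated but 1.05 ± 0.112 for Pruned (SD, n = 4). Library totals overlapped, at 17690746 to 22463721 counts in Reactivated and 17459226 to 21462529 in Pruned.

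**Figure D1:**
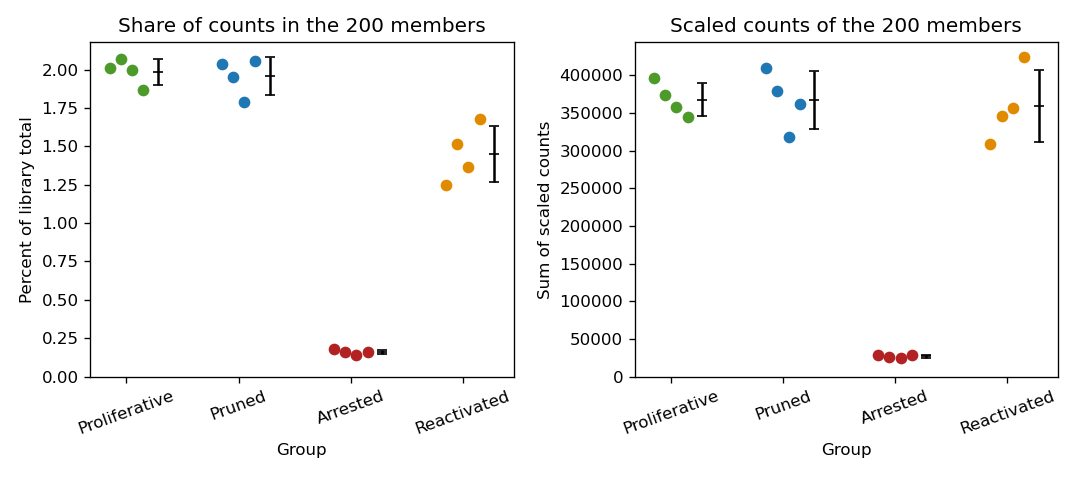
Share of all counts (left, percent) and summed scaled counts (right) of the 200 members in each library, by group, with the group mean and SD (n = 4) as a bar to the right of the 4 points. Arrested lies at 0.143% to 0.179% on the left, and Reactivated lies below Pruned on the left and overlaps it on the right.

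The change of scale moved the median of the members and of all genes by similar amounts. With library totals in place of size factors the members' median difference between Reactivated and Pruned went from -0.04 to -0.42 on the log2 scale, and the median over all tested genes went from -0.04 to -0.40. Relative to all tested genes the members lay at 0.01 with size factors and at -0.03 with library totals. With totals, 64 of the 200 members still had Reactivated within 0.3 of Pruned, 136 had it further below and 0 further above. In edgeR with library totals 54 members were called lower in Reactivated than in Pruned, against 41.0% of all tested genes. The statement that the members were back is thus a statement relative to the typical gene of the library.

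The fall at arrest ranged widely among the members. The difference between Arrested and Pruned ran from -7.09 to -2.73 on the log2 scale, with quartiles at -4.15 and -3.02 and a median of -3.45, where the median over all tested genes was -0.06. A difference of 3 or more, an 8-fold fall on the log2(mean + 10) scale, was reached by 153 members, 4 or more by 59, 5 or more by 16 and 6 or more by 8. The rule asked for more than 3 raw counts over the Arrested libraries, so some signal at arrest was a condition of entry for the members. Their mean scaled count in Arrested was between 0.238% and 14.8% of that in Pruned, with a median of 6.55%, and was under 2% in 27 members and under 10% in 140. Raw counts summed over the Arrested libraries had a median of 251 and ran from 4, the lowest the rule allows, to 10168. A count in each Arrested library was found in 181 of the 200.

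All 200 members passed the filter and entered edgeR's quasi-likelihood test over 23979 genes. At a Benjamini-Hochberg adjusted p under 0.05 in that test, 200 were called lower in Arrested than in Pruned, 200 lower than in Proliferative and 200 higher in Reactivated than in Arrested. Over all tested genes these calls were made for 36.6%, 35.1% and 36.3%. Between Reactivated and Pruned 0 members were called, and 0 had an unadjusted p under 0.05, against 40.1% called over all genes; DESeq2 also called 0. The rule used these contrasts or their sums, so nothing is read from these counts. In 193 members every Arrested library lay below all 12 active libraries in scaled counts, an order that 23.9% of all tested genes showed.

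**Figure D2:**
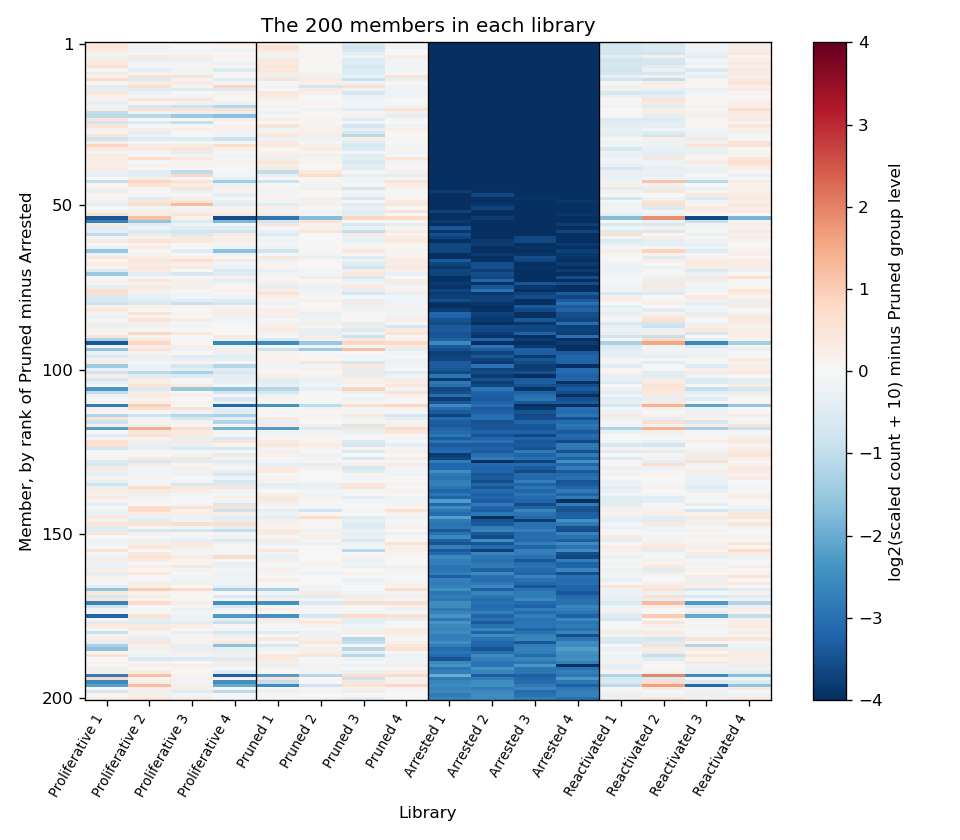
Level of each of the 200 members (rows, by rank) in each of the 16 libraries (columns), as log2(scaled count + 10) minus the level of the Pruned group, with colours capped at -4 and 4. The 4 Arrested columns are low in nearly every row, and a few rows, such as ranks 54 and 92, vary strongly among the active libraries.

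The 2 members named for their fall had the largest differences between Pruned and Arrested among those whose Arrested libraries lay below all others. Psat3g201160, of rank 1, had scaled counts of 4876, 4822, 3251 and 4810 in Pruned 1 to 4. In Arrested 1 to 4 they were 23.8, 14.7, 20.8 and 31.4, from 104 raw counts in all. The groups lay apart by a log2 difference of -7.09. In Reactivated 1 to 4 the gene had 2578, 2862, 3911 and 5754, so Reactivated 1 and 2 lay below every Pruned library and Reactivated 4 above every one. Proliferative, at 5427, 4697, 4844 and 5370, overlapped Pruned.

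Psat4g012480, of rank 2, showed the same order of groups. Its scaled counts were 4378, 2996, 1755 and 2524 in Pruned 1 to 4 and 22.9, 6.02, 9.55 and 8.67 in Arrested 1 to 4, from 56 raw counts in all. Arrested lay below Pruned by a log2 difference of -7.07. In Reactivated 1 to 4 it had 1833, 1953, 2715 and 3437, all within the range of Pruned. In Proliferative 1 to 4 it had 4037, 2568, 2884 and 3084.

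The 2 members named for their rise had the largest differences between Reactivated and Arrested among the rest. Psat3g201960, of rank 3, went from 13.1, 26.1, 24.3 and 37.9 in Arrested 1 to 4 to 2702, 2788, 3784 and 5507 in Reactivated 1 to 4, a log2 difference of 6.71. In Pruned 1 to 4 it had 5626, 4510, 2797 and 4197. Psat3g202200, of rank 4, went from 27.04, 30.7, 31.3 and 45.5 in Arrested to 2482, 2459, 3470 and 5566 in Reactivated, a log2 difference of 6.33. Its Pruned libraries lay at 4723, 4539, 3260 and 4068. In both genes Reactivated 4 was the highest Reactivated library and Pruned 3 the lowest Pruned one.

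**Figure D3:**
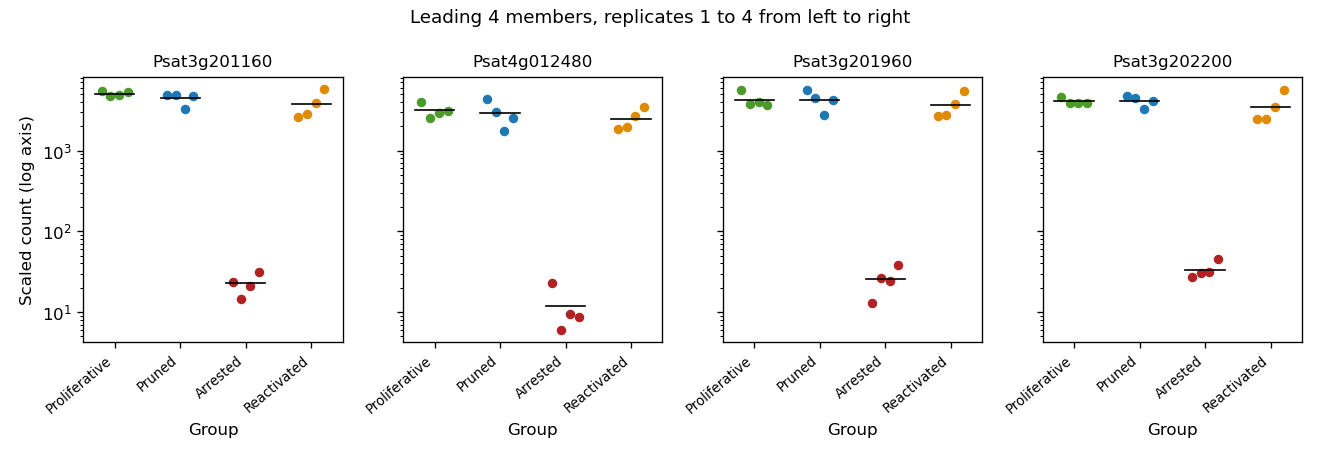
Scaled counts (log axis) of the 4 leading members in each library, by group, with replicates 1 to 4 from left to right and the group mean as a line. The highest Arrested value is 45.5, in Psat3g202200, and the lowest active value 1755, in Psat4g012480.

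Between Pruned and Proliferative none of these 4 genes was called, with log2 fold changes of -0.21 (SE 0.21) for Psat3g201160, -0.12 (SE 0.28) for Psat4g012480, -0.01 (SE 0.25) for Psat3g201960 and 0.02 (SE 0.21) for Psat3g202200 in edgeR's quasi-likelihood test. Their adjusted p values, in the same order, were 0.762, 0.918, 0.993 and 0.988 in edgeR. The counting ignored strand, so their reads can include those of an antisense or overlapping gene. The IDs of ranks 1, 3, 4 and 8, that is 4 of the 10 leading members, lie within 27 neighbouring rows of the table, which is ordered by ID. If they are near-identical copies, reads may have been split among them, and their values would then not be separate measurements. Over all 200 members only 2 pairs sat on neighbouring rows, and the ID prefixes were close to those of all tested genes, with 15.5% against 16.1% for Psat5g and 14.5% against 14.2% for Psat7g.

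Small differences between Reactivated and Pruned remained inside the tolerance that the rule set. In the 8 members whose fall was 6 or more, Reactivated lay below Pruned in 8, by -0.28 to -0.10 with a median of -0.23 on the log2 scale. Reactivated 4 was the highest Reactivated library in 7 of these 8, and Pruned 3 the lowest Pruned library in 7. In the leading 50 members Reactivated was below Pruned in 33, with a median of -0.10, and in the last 50 in 25, with a median of -0.01. The rank and this difference both use the Pruned level, with opposite sign, so no result is read from the change with rank. The member of rank 100 had 1535, 1607, 1078 and 1343 scaled counts in Pruned 1 to 4, 122, 98.3, 93.8 and 155 in Arrested, and 1480, 1452, 1564 and 1689 in Reactivated.

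The edges of the list were not gaps. The last member, of rank 200, had a difference between Pruned and Arrested of 2.7253 and the first gene outside 2.7244. The highest member in Reactivated minus Pruned lay at 0.287 and the next gene above the limit at 0.303, and the lowest member lay at -0.295 with the next gene below at -0.301. The member with the smallest difference between Proliferative and Arrested lay at 2.01, and the nearest gene outside at 1.96.

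Members made up a minor part of all genes lowered at arrest. Against both never-arrested groups 1543 genes lay lower by 2 or more on the log2 scale with over 3 raw counts in Arrested. Of these, 865 (56.1%) had Reactivated more than 0.3 below Pruned, 365 (23.7%) within 0.3 and 313 (20.3%) more than 0.3 above. The median difference between Reactivated and Pruned was -1.11 in the genes below and 0.69 in those above. The median fall at arrest was -3.39 in the genes below and -2.72 in those above, against -3.45 in the members, which were taken for large falls. The classes were cut on these values, so no test was made between them.

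**Figure D4:**
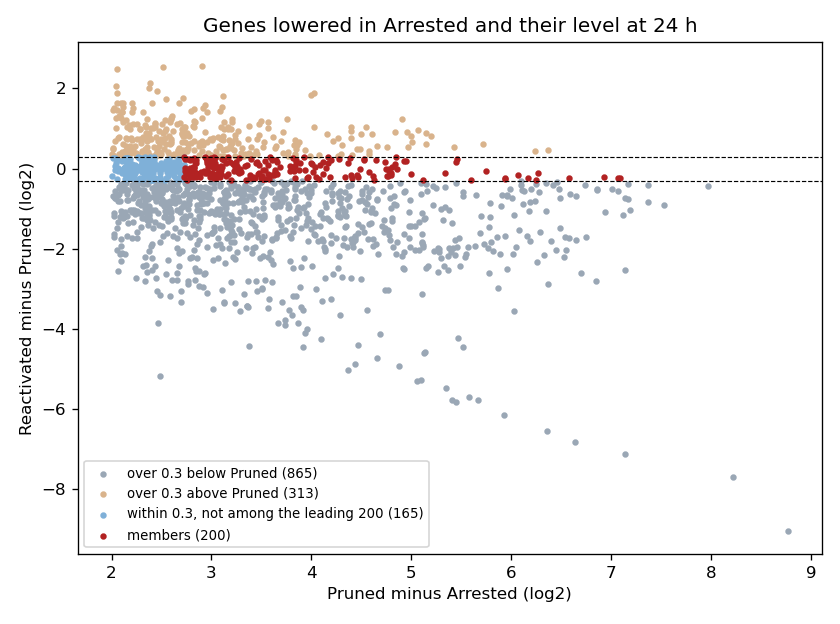
Each of the 1543 lowered genes by its difference between Pruned and Arrested (horizontal, log2) and between Reactivated and Pruned (vertical, log2), with dashed lines at -0.3 and 0.3. The 200 members fill the band between the lines from 2.73 to 7.09, with 865 genes below the band and 313 above it.

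The rule limited only the mean of Reactivated against Pruned, and single libraries lay around it. The median over members of Reactivated minus Pruned was -0.20, 0.00, -0.08 and 0.17 for Reactivated 1 to 4 on the log2 scale, and 123, 99, 135 and 120 of the 200 members lay within 0.3. For scale, each Pruned library set against the mean of the other 3, a different reference, gave medians of 0.03, 0.01, -0.22 and 0.08, with 102, 147, 83 and 135 members within 0.3. Reactivated 1 was low and Reactivated 4 high for the list as a whole, as Pruned 3 was low among the Pruned libraries. The ranges of Reactivated and Pruned libraries overlapped in 198 members in scaled counts. In 1 member all Reactivated libraries lay below all Pruned ones and in 1 above, orders that 17.8% and 18.2% of all tested genes showed. Group means within 0.3 of each other favour such overlap, so no result is read from these counts. As shares of library totals, 43 members had Reactivated below all Pruned libraries and 0 above, against 33.9% and 9.02% of all tested genes.

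The rule put no limit on the difference between Pruned and Proliferative, the older and the younger active meristems. Most members differed little between them, with a median of -0.02, quartiles of -0.17 and 0.24 and a range from -0.64 to 1.45 on the log2 scale, where the median over all tested genes was 0.01. In 139 members the groups lay within 0.3, in 41 Pruned was further above and in 20 further below. With edgeR's quasi-likelihood test 5 members were called higher in Pruned and 1 lower, 3.0% of the 200, against 3.69% over all tested genes. The share in the members is close to that background. The choice of members by the largest Pruned minus Arrested difference favours genes that are high in the Pruned libraries, so these calls are not fully separate from the rule.

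The 6 called members were named by rank after their values were seen. The member of rank 23 had scaled counts of 348, 343, 270 and 230 in Proliferative 1 to 4 and 795, 789, 845 and 573 in Pruned 1 to 4. All Pruned libraries lay above all Proliferative ones, and edgeR gave a log2 fold change of 1.32 (SE 0.21, adjusted p = 0.00212). Its Reactivated libraries lay at 726, 573, 873 and 900, and Arrested at 9.02, 22.1, 13.9 and 23.8. The largest difference was that of rank 55, with 130, 290, 600 and 244 in Proliferative 1 to 4 and 528, 1279, 863 and 849 in Pruned 1 to 4. Here Proliferative 3 lay above Pruned 1, and edgeR gave a log2 fold change of 1.46 (SE 0.36, adjusted p = 0.0328).

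Ranks 101, 114 and 124 were also called higher in Pruned, with log2 fold changes of 0.91 (SE 0.21), 1.09 (SE 0.21) and 0.55 (SE 0.13) and adjusted p values of 0.0248, 0.00699 and 0.0211 in edgeR. In each of them all 4 Pruned libraries lay above all 4 Proliferative ones. The member called lower was rank 147, with 6817, 7078, 7656 and 7565 in Proliferative 1 to 4 and 5247, 5046, 3283 and 5065 in Pruned 1 to 4. Its fold change in edgeR was -0.66 on the log2 scale (SE 0.15, adjusted p = 0.0193), and the groups did not overlap. The number of calls was unstable: edgeR gave 1 when only these 8 libraries were fitted and 21 with the within-group axis as a covariate, and DESeq2 gave 14. The share of all tested genes called in these other fits is not given here. Closeness to the background is therefore shown for the main fit only. In scaled counts, all Pruned libraries lay above all Proliferative ones in 15 members and below them in 1, orders that 4.11% and 3.37% of all tested genes showed.

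Reactivated was compared with Proliferative as well, a contrast that the limits on the other groups tie down in part. The median over members was 0.00 on the log2 scale, with a range from -0.64 to 1.35, and 121 members lay within 0.3. In edgeR's quasi-likelihood test 17 were called higher in Reactivated and 10 lower, 13.5% of the 200, against 41.1% of all tested genes. With library totals 3 were called higher, a count with no share over all tested genes beside it. With the same totals 72 were called lower, against 41.9% of all tested genes. This comparison shares the Proliferative libraries with the one before, and the 6 members called there had log2 fold changes of 1.32, 1.16, 1.02, 1.31, 0.68 and -0.40 here, for ranks 23, 55, 101, 114, 124 and 147.

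The spread among libraries of a group was not used by the rule, and it varied widely among the members. The SD within groups of log2(scaled count + 10) had a median of 0.32 over members and 0.29 over all tested genes, and 173 members lay under 0.5. In 8 members it was over 1, between 1.32 and 1.92. The next members, of ranks 195, 167 and 43, lay at 0.88, 0.86 and 0.79, so the cut at 1 does not set off a separate kind. An SD over 1 was found in 4.0% of members, against 1.80% of all tested genes, 12.04% of the lowered genes that stayed more than 0.3 below Pruned and 3.19% of those above. These 8 members, of ranks 54, 92, 111, 118, 171, 175, 193 and 196, were singled out after their values were seen.

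They moved together across the active libraries. Their summed scaled counts were 213, 4122, 2198 and 259.7 in Proliferative 1 to 4, 321, 1028, 3479 and 3619 in Pruned 1 to 4, and 1114, 5862, 366 and 771 in Reactivated 1 to 4. In Arrested 1 to 4 they were 281, 150.4, 107 and 106. Each of the 8 was higher in Proliferative 2, Proliferative 3, Pruned 3, Pruned 4 and Reactivated 2 than in Proliferative 1, Proliferative 4, Pruned 1 and Reactivated 3, with no overlap. This order was not particular to the 8, since other members, such as those of ranks 43, 167 and 195, showed it too. Its share over the other members and over all tested genes was not counted. Between the highest and the lowest active library the 8 differed by 19.3-fold to 427-fold, whereas the median of the other 192 members was 2.01-fold.

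The largest ratio was that of rank 193, which had 0.924 scaled counts in Proliferative 4, from 1 read, so that this ratio is uncertain, and 395 in Reactivated 2. The member of rank 54 showed the pattern at higher counts, with 12.2, 526, 249 and 10.2 in Proliferative 1 to 4, 21.9, 61.6, 420 and 404 in Pruned 1 to 4 and 61.7, 845, 9.91 and 55.1 in Reactivated 1 to 4. In Arrested 1 to 4 it had 4.92, 7.35, 3.47 and 0. Its lowest active libraries thus lay only slightly above Arrested. Of the 7 members whose Arrested libraries overlapped the active ones, 6 were among these 8, and Arrested 1 was the highest Arrested library in 5 of the 6.

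**Figure D5:**
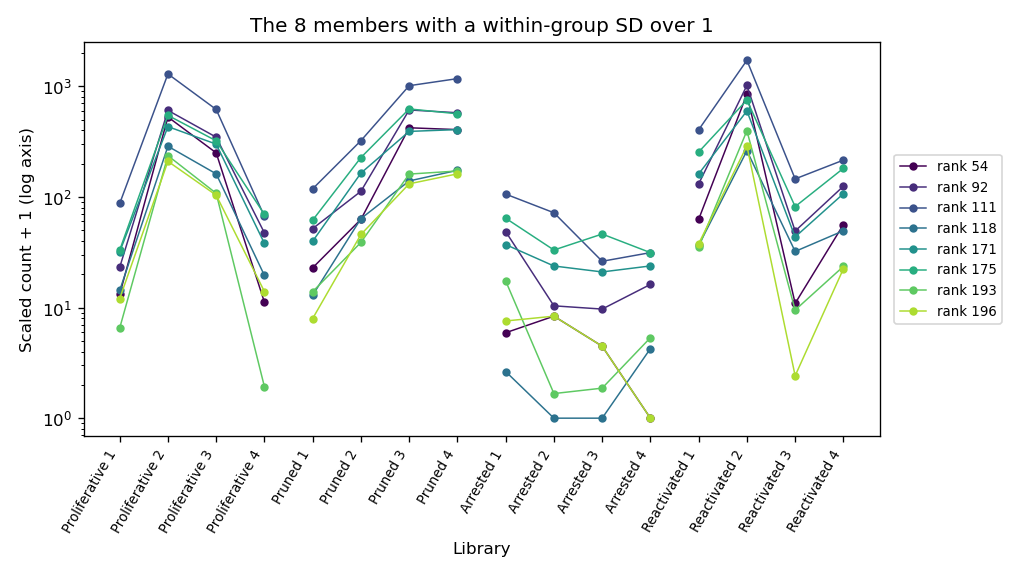
Scaled count plus 1 (log axis) of the 8 members with a within-group SD over 1, by library, with a line joining the libraries of a group for each member. All 8 are high in Proliferative 2 and 3, Pruned 3 and 4 and Reactivated 2 and lower in Proliferative 1 and 4, Pruned 1 and Reactivated 3.

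The closeness of these 8 members to Pruned at 24 h rested on single libraries. Without Reactivated 2, 0 of the 8 still met the rule, and their median difference between Reactivated and Pruned was -1.49 on the log2 scale in place of a value within 0.3. Of the other 192 members, 173 still met it without that library, with a median of -0.03. Without Pruned 1 or without Pruned 4, 2 of the 8 met the rule, with medians of -0.38 and 0.35. Without Proliferative 2, 3 of the 8 met it, while their median between Reactivated and Pruned stayed at -0.03, so the limit they missed was another one. The group means of these genes thus mix high and low libraries.

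Beyond these 8, members followed the axis in about the same shares as all tested genes. Across the 16 libraries, after group means were removed, 57 members had a correlation over 0.5 with the axis and 49 had one under -0.5, that is 28.5% and 24.5%, against 24.3% and 28.1% of all tested genes. These are descriptions over libraries that also defined the axis. The 8 members of large spread had correlations from 0.926 to 0.980 and are thus among the 57. In the leading 50 members 20 lay under -0.5 and 9 over 0.5, and in the last 50 these numbers were 9 and 16. The 16 include ranks 171, 175, 193 and 196 of the 8. Pruned 3, where the 8 members were high, was the lowest Pruned library for 37 of the leading 50 members and for 24 of the last 50.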

How the data were processed

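RNA-seq was made from 16 libraries of pea shoot apical meristem. Per the labels' protocols, RNA was column-purified and DNase-treated, and poly(A)-enriched, strand-specific libraries were read on an Illumina NovaSeq instrument. The authors deposited raw counts per gene in a single table whose name says HTSeq without regard to strand. The tools were HISAT2, HTSeq, cutadapt and DESeq2, per the submitters' processing notes. Their versions, the genome build and the annotation are not given in the sources used here. The table held 48559 genes and 0 rows that name no gene.

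Size factors were medians of ratios over the 21975 genes with a count in every library. Tests used edgeR 4.0.16 in R 4.3.3 (glmQLFit, glmQLFTest, TMM factors, filterByExpr by group, all libraries in a single fit, group as the only term), with Benjamini-Hochberg adjustment over 23979 genes and a threshold of 0.05. Standard errors are the fold change (log2) over the square root of F. The fit was also run on simulated counts with known changes, which held no within-group axis and fewer changed genes than were called here. That run checks the code and not the error rates in these data. Alternatives included DESeq2 1.42.0, other scalings and pseudocounts, a replicate block and leaving out each library. The covariate for the within-group axis and the 8 members of large spread were chosen after seeing the data. The members and lists were chosen with earlier results of these data known. IDs were printed for 4 members, the 2 largest falls and, among the rest, the 2 largest rises, without overlap of Arrested and active libraries. Nothing in the labels says that libraries of a group came from separate plants beyond calling them biological replicates, so p-values measure the spread between these libraries.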

Additional observations from a re-analysis of the deposited data

Results flagged for a closer look

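In 28 group values of 4 libraries each (shares and sums of the members, and the 4 genes printed by ID), 4 had a library far from the other 3, by a gap that exceeds Dixon's 95% critical value for 4 values. Chance gives about 1 in 20 for a group of independent values that was not chosen for its spread. The members of large spread were chosen for it, which favours a far library in their sums. The other values share members and libraries, so they are not independent. The count of 4 in 28 is therefore not read against that rate.

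The summed scaled counts of the 8 members of large spread were 5862 in Reactivated 2, against 366 to 1114 in the other Reactivated libraries. Psat3g201160 had 3251 scaled counts in Pruned 3, against 4810 to 4876 in the other Pruned libraries. Psat3g201960 had 5622 in Proliferative 1, against 3713 to 3978 in the other Proliferative libraries, and Psat3g202200 had 4546 there, against 3836 to 3936. Over all 200 members the same measure, on log2(scaled count + 10), marked 13 members (6.5%) in Proliferative, 11 (5.5%) each in Pruned and Arrested and 7 (3.5%) in Reactivated. Of the 13 in Proliferative, 10 concerned Proliferative 1.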

How the results depend on the processing

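Of 432 alternative values for 23 results, 406 stayed near the value reported and 26 moved further. Near meant counts within 1.5 times, and medians and shares within the spread between libraries. For the genes printed by ID it meant the same sign and the same call between Arrested and Pruned. Leaving out 1 library cannot move a share beyond that spread, and many of the calls were on contrasts that the rule used. The number 406 is therefore no measure of robustness. Medians near 0 changed sign: leaving out 1 library moved Reactivated minus Pruned from -0.04 to between -0.06 and 0.02, Pruned minus Proliferative from -0.02 to between -0.06 and 0.04, and Reactivated minus Proliferative from 0.00 to between -0.06 and 0.06. Library totals also turned the calls between Reactivated and Proliferative from 17 higher and 10 lower to 3 and 72. With library totals the rule was met by 243 genes, 64 members were kept, and 54 and 75 members were called between Reactivated and Pruned and between Reactivated and Proliferative; the members' medians became -3.32 for Arrested minus Pruned, 2.87 for Reactivated minus Arrested, -0.42 for Reactivated minus Pruned and -0.41 for Reactivated minus Proliferative. A pseudocount of 50 gave 232 genes that met the rule, from 918 lowered genes in place of 1543, and one of 1 gave medians of -3.86 and -3.77 for Arrested against Pruned and Proliferative and 3.82 for Reactivated minus Arrested. A tolerance of 0.2 kept 125 members, and one of 0.5 gave 582 genes and kept 122 members. The within-group axis as a covariate gave 1, 42 and 21 calls between Reactivated and Pruned, Reactivated and Proliferative, and Pruned and Proliferative. Because the axis was computed from these same libraries, it takes up spread within groups by construction, and more calls are no separate result. For the last pair, DESeq2 gave 14 calls and a fit of only these groups 1. The cause of these moves was not tested. For calls under these and the following alternatives, the share over all tested genes is not given, except for those called lower with library totals, above. The other counts are thus not read against a background.

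Leaving out 1 library kept 152 to 199 members, the fewest without Pruned 1 and without Pruned 3. It gave 0 to 2 calls between Reactivated and Pruned, 17 to 28 between Reactivated and Proliferative (17 without Proliferative 3) and 3 to 7 between Pruned and Proliferative (3 without Proliferative 3 or 4). Replicate numbers did not pair the libraries: deviations from group means correlated between -0.376 and 0.639 over 24 same-numbered pairs, 4 of them over 0.1, and 1 of 16 libraries correlated best, on average, with its own number in the other groups. With the replicate block, 199, 197, 199, 0, 23 and 5 members were called, in the order Arrested minus Pruned, Arrested minus Proliferative, Reactivated minus Arrested, Reactivated minus Pruned, Reactivated minus Proliferative and Pruned minus Proliferative. Members with few counts in Arrested, down to 4 over the group, have the least certain falls.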
